A study of Caenorhabditis elegans with 8 samples.

Results

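The acyl-CoA synthetases (acs) and acyl-CoA dehydrogenases (acdh) of Caenorhabditis elegans are described here across the 4 groups of a study of the RNase gene rege-1. All genes of the coding count table with an acs or acdh symbol and number were taken, except acdh-1, which gave 34 genes (22 acs and 12 acdh) of the 20182 in the table. All 34 passed the filter on low counts. The groups held 2 libraries of whole young adults each, namely glp-1 (e2141) animals labelled rege-1 knock down, glp-1 (e2141) animals on mock RNAi, N2 animals labelled rege-1 knock down, and N2 animals on mock RNAi. All animals were fed double-stranded RNA from the first larval stage. The glp-1 groups were kept at 25 °C, and no temperature is given for N2, the laboratory wild type, so that strain and a possible temperature difference cannot be told apart. The e2141 allele is a temperature-sensitive lesion of the Notch receptor gene glp-1, which keeps germline stem cells dividing.

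A fatty acid must be joined to coenzyme A before a cell can burn it, store it or attach it to another molecule. Acyl-CoA synthetases carry out this activation, each for fatty acids of certain chain lengths, in the endoplasmic reticulum, peroxisome, mitochondrion or cytosol. Acyl-CoA dehydrogenases then carry out the first step of mitochondrial beta-oxidation, or a later step of branched-chain amino acid breakdown, and pass the electrons to an electron transfer flavoprotein. In the worm these reactions run mostly in intestine and hypodermis, the main fat-handling tissues, and acs-2 is a widely used reporter of fasting and of the nuclear receptor NHR-49.

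Library totals ranged from 26127079 to 30093967 coding counts, of which the 34 genes took from 0.251 to 0.300%. Levels are CPM, that is counts scaled to a common library total after adjustment by the trimmed mean of M values, and they are divided by coding length in kilobases where genes are compared with each other. The targeted gene rege-1 had more and not fewer coding counts in the libraries labelled as knock down, with 1950 and 1891 against 495 and 480 in glp-1, and 2664 and 2137 against 396 and 354 in N2. Its intron counts were also higher there, with 240 and 296 against 40 and 25 in glp-1, and 4166 and 3265 against 15 and 15 in N2. The direction of every RNAi result therefore rests on the library labels. Germline markers were present in the glp-1 libraries. The summed level of 12 such markers was 1991 to 2069 CPM in glp-1 RNAi, 1921 to 1971 in glp-1 mock, 2702 to 3058 in N2 RNAi and 2715 to 2899 in N2 mock. The 8 intestine markers summed to 1884 to 2007 CPM in glp-1 RNAi against 1034 to 1076 in glp-1 mock, and to 2142 to 2313 in N2 RNAi against 1041 to 1061 in N2 mock. The 9 sperm markers summed to 78.8 to 96.6 CPM in glp-1 RNAi, 88.2 to 90.5 in glp-1 mock, 48.8 to 65.6 in N2 RNAi and 54.5 to 71.9 in N2 mock. In whole animals, fewer cells of a type and less RNA per cell cannot be told apart. No label says that replicates came from separate cultures, so every p reflects library-to-library spread, which may be technical. This spread was uneven. The mean chi-square per gene between replicates was 3.36 in glp-1 mock, 53.9 in glp-1 RNAi, 27.4 in N2 RNAi and 36.4 in N2 mock. All 4 groups share 1 estimate of spread, so the close glp-1 mock pair enters the p of every comparison.

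The 34 genes spanned a wide range of expression. Per coding length, 8 acs and 5 acdh genes lay above 50 CPM per kb on average over the 8 libraries, and 2 acs genes and 1 acdh gene lay under 1. The highest was acs-19, which encodes an acetyl-CoA synthetase and so activates the shortest fatty acid. It stood at 184 CPM per kb in glp-1 RNAi, 141 in glp-1 mock, 226 in N2 RNAi and 168 in N2 mock. Next among the synthetases came acs-13 and acs-4, both of the long-chain type, with means of 144 and 137 CPM per kb. Before division by length, acs-13 had 293 and 259 CPM in glp-1 RNAi, 233 and 263 in glp-1 mock, 371 and 419 in N2 RNAi, and 353 and 304 in N2 mock. Myristoyl-CoA made by ACS-4 is known to take part in germline sex determination. The 6 highest synthetases (acs-19, acs-13, acs-4, acs-5, acs-1 and acs-11) made up 74.7 to 79.8% of the summed per-length level of all 22 acs genes in each of the 8 libraries.

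Among the dehydrogenases acdh-3 was highest, at 168 CPM per kb in glp-1 RNAi, 154 in glp-1 mock, 152 in N2 RNAi and 162 in N2 mock. Before division by length it had 234 and 189.6 CPM in glp-1 RNAi, 198 and 189 in glp-1 mock, 200.4 and 183 in N2 RNAi, and 198 and 211 in N2 mock. It was followed by acdh-12, which is the worm relative of the very-long-chain enzyme, with 117, 117, 132 and 141 CPM per kb in the same order of groups. Its CPM were 219 and 212 in glp-1 RNAi, 215 and 214 in glp-1 mock, 238 and 246 in N2 RNAi, and 268 and 251 in N2 mock. These genes and acdh-10, a relative of the medium-chain enzyme, held 58.4 to 62.3% of the summed per-length level of the 12 acdh genes in every library. The lowest genes were acs-9 and acs-24, with means of 0.384 and 0.442 CPM per kb, and acdh-6, with 0.973.

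**Figure D1:**
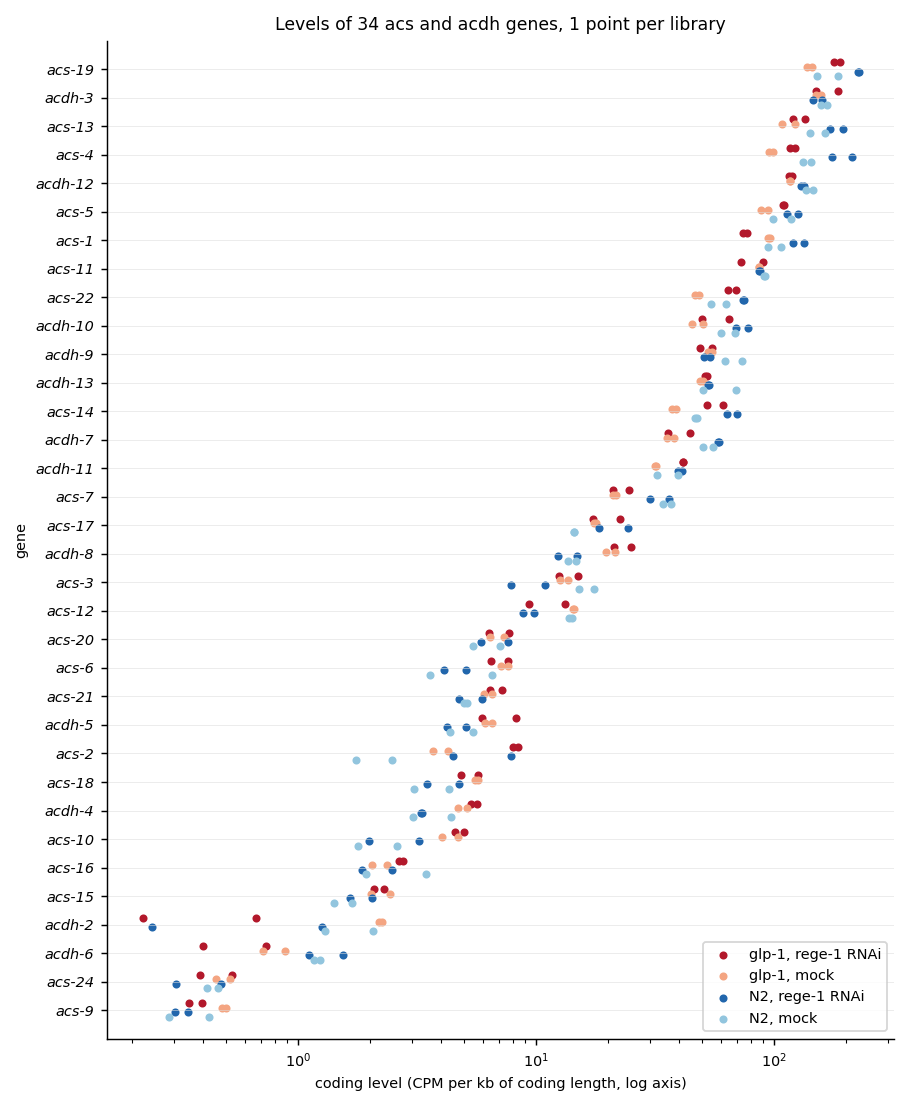
Coding level of the 34 genes in CPM per kb of coding length (log axis), with 1 point per library and colours for the 4 groups, ordered by the mean over all 8 libraries. Levels run from about 0.384 (acs-9) to about 180 CPM per kb (acs-19), and acs-2 and acdh-2 are spread most widely among groups.

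The spread over libraries differed between genes. The ratio of the highest to the lowest library was 1.26 for acdh-12, 1.28 for acdh-3 and 1.26 for the synthetase acs-11, but 1.72 for the abundant acdh-10. It reached 4.80 for acs-2, 3.90 for acdh-6 and 10.1 for acdh-2, all of which had under 20 CPM in each library. Summed over its 22 genes, the acs family stood at 1814 and 1865 CPM in glp-1 RNAi against 1564 and 1633 in glp-1 mock, and at 2297 and 2405 in N2 RNAi against 1991 and 1842 in N2 mock. The 12 acdh genes summed to 876 and 783 CPM in glp-1 RNAi against 774 and 772 in glp-1 mock, and to 861 and 868 in N2 RNAi against 926 and 876 in N2 mock. The acs sum was thus higher under RNAi in both strains with no overlap. The acdh sum was only narrowly higher in glp-1 (783 against 774 CPM in the nearest libraries) and narrowly lower in N2 (868 against 876). The sums were not tested, and each is weighted towards the most abundant genes of its family.

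In N2 the question was which of the 34 genes differed between libraries labelled rege-1 RNAi and mock. The synthetases acs-2 and acs-14 rose and acs-3 fell, and none of the 12 dehydrogenases passed the threshold. Changes are log2 values (RNAi over mock) with a standard error (SE) from edgeR's quasi-likelihood test, and adjusted p is over all 15321 genes tested. The 3 genes called are 8.82% of the 34, against 4.79% of all genes tested (3.13% higher and 1.66% lower). At an unadjusted p under 0.05 there were 10 of the 34 (9 acs and 1 acdh), against 13.2% of all genes tested. The median change of the members was 0.09, and that of all genes -0.01.

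The gene acs-2 (WBGene00009221, protein coding, chromosome V from 15567394 to 15569897, plus strand, WBcel235) encodes a mitochondrial synthetase. It had 8.34 and 14.5 CPM in N2 RNAi against 3.26 and 4.59 in N2 mock. Both RNAi libraries lay above both mock libraries, but they differed from each other by more than the lower of them exceeded the higher mock library. The change was 1.55 (SE 0.27, adjusted p = 0.00486). Of 16 alternatives, leaving out N2 mock replicate 1, the lower of the mock libraries, was the only one to end the call (adjusted p = 0.11).

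The gene acs-14 (WBGene00008669, protein coding, chromosome V from 9508132 to 9510377, plus strand) had 114 and 103 CPM in N2 RNAi against 77.2 and 76.4 in N2 mock. The groups did not overlap, and the replicates lay close together. The change was small, at 0.50 (SE 0.13, adjusted p = 0.0481). The call ended without N2 mock replicate 1 or 2 (adjusted p = 0.189 and 0.168), N2 RNAi replicate 1 or 2 (0.236 and 0.133), and glp-1 mock replicate 1 or 2 (0.117 and 0.131), whose spread enters the shared estimate. It also missed the threshold with library totals alone (0.106), by limma (0.113) and with the length trend removed (0.0622).

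The gene acs-3 (WBGene00020343, protein coding, chromosome V from 1969528 to 1974514, plus strand) is known for limiting fat uptake together with the nuclear receptor NHR-25. It had 21.4 and 15.4 CPM in N2 RNAi against 34.5 and 29.7 in N2 mock, again without overlap. The change was -0.80 (SE 0.18, adjusted p = 0.0238). It lost this call when N2 mock replicate 1 (adjusted p = 0.211) or 2 (0.0644) was omitted, as it did without N2 RNAi replicate 2 (0.243), without glp-1 mock replicate 1 (0.057) or 2 (0.0517), and in a fit of the N2 groups alone (0.0529). The level of nhr-25 itself was 8.72 and 12.03 CPM in N2 RNAi against 6.62 and 12.6 in N2 mock (log2 0.12, adjusted p = 0.938).

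Several other synthetases lay apart between the groups in N2 without passing the threshold. In acs-4 the values were 385 and 465 CPM in N2 RNAi against 290.3 and 313 in N2 mock (log2 0.49, adjusted p = 0.087). In acs-17 they were 39.5 and 52.5 CPM against 31.0007 and 31.1043 (log2 0.57, adjusted p = 0.097), and in acs-12 they were 16.3 and 14.5 against 22.6 and 23.4 (log2 -0.58, adjusted p = 0.109). In all, 11 of the 34 genes had both RNAi libraries above both mock libraries in N2, and 6 had both below, where 19.4 and 21.8% of all genes tested did so. The intestine markers given above were higher in the same RNAi libraries, with 4 of 8 called and 0 lower, and their part in these values was not tested.

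The same comparison in glp-1 called 1 gene, acs-14, which rose. It had 99.5 and 85.5 CPM in glp-1 RNAi against 63.3 and 61.0 in glp-1 mock (log2 0.57, SE 0.13, adjusted p = 0.0345). This is 2.94% of the 34 genes, against 2.7% of all genes tested (1.89% higher and 0.816% lower). At an unadjusted p under 0.05 there were 7 of the 34, against 10.4% of all genes tested. The call on acs-14 ended in this strain too without glp-1 mock replicate 1 or 2 (adjusted p = 0.349 and 0.496) or RNAi replicate 1 (0.123). It ended as well without N2 mock replicate 1 or 2 (0.0546 and 0.0536) and N2 RNAi replicate 1 or 2 (0.0604 and 0.0596), with library totals alone (0.0601), by limma (0.0671) and in a fit of the glp-1 groups alone (0.0994). The abundant acs-4 had 256 and 269 CPM in glp-1 RNAi against 208 and 217 in glp-1 mock (log2 0.30, adjusted p = 0.497). Of the 34, 10 genes had both RNAi libraries above both mock libraries and 4 had both below, against 23.4 and 21.8% of all genes tested.

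In glp-1 acs-2 stood at 15.6 and 14.8 CPM under RNAi against 7.93 and 6.85 under mock (log2 1.04, SE 0.25, adjusted p = 0.0588). The replicates were close here, and the groups did not overlap. The gene passed in 7 of the alternatives, among them DESeq2 (0.00452) and the glp-1 groups alone (0.0175). The synthetase acs-22, of the fatty acid transport protein type, had 127 and 137 CPM in glp-1 RNAi against 92.3 and 95.8 in glp-1 mock (log2 0.49, adjusted p = 0.0863). With the length trend removed acs-22 passed (log2 0.53, adjusted p = 0.0179), and 3.15% of all genes tested were called. Without glp-1 RNAi replicate 2 this gene passed (adjusted p = 0.0489), as did acs-12 (0.0427), and 3 of the 34 were then called. In that setting 9.52% of all genes tested were called.

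The dehydrogenase gene acdh-2 (WBGene00015894, protein coding, chromosome II from 5544778 to 5547492, minus strand) had the lowest log2 change of the 34 in both strains and missed the threshold in both. Its counts were 8 and 24 in glp-1 RNAi against 91 and 84 in glp-1 mock (log2 -2.31, SE 0.57, adjusted p = 0.0647). They were 8 and 43 in N2 RNAi against 46 and 66 in N2 mock (log2 -1.13, SE 0.55, adjusted p = 0.431). The groups did not overlap in either strain, but the N2 RNAi libraries lay far apart, at 0.303 and 1.58 CPM. In glp-1 the gene was called in 4 of 16 alternatives, among them DESeq2 (adjusted p = 0.00262) and the fits without N2 RNAi replicate 1 or 2 (0.0131 and 0.0133). Its intron counts were 6 and 2 in glp-1 RNAi against 17 and 20 in glp-1 mock, and 1 and 17 in N2 RNAi against 13 and 25 in N2 mock. Exons of acdh-2 share 87 bases with the gene ins-13 on the same strand.

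Of the remaining dehydrogenases, acdh-11, whose product is known to curb expression of the desaturase gene fat-7, had 77.1 and 76.5 CPM in glp-1 RNAi against 58.8 and 59.3 in glp-1 mock (log2 0.38, adjusted p = 0.244). In N2 it had 73.2 and 76.3 CPM under RNAi against 73.0 and 59.4 under mock (log2 0.17, adjusted p = 0.688). The abundant acdh-12 was at 0.01 in glp-1 (95% interval -0.27 to 0.29) and at -0.10 in N2 (-0.38 to 0.18). For acdh-3 the change was 0.13 in glp-1 (-0.18 to 0.44) and -0.09 in N2 (-0.41 to 0.22). Every one of these intervals lies within a 2-fold change in either direction.

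**Figure D2:**
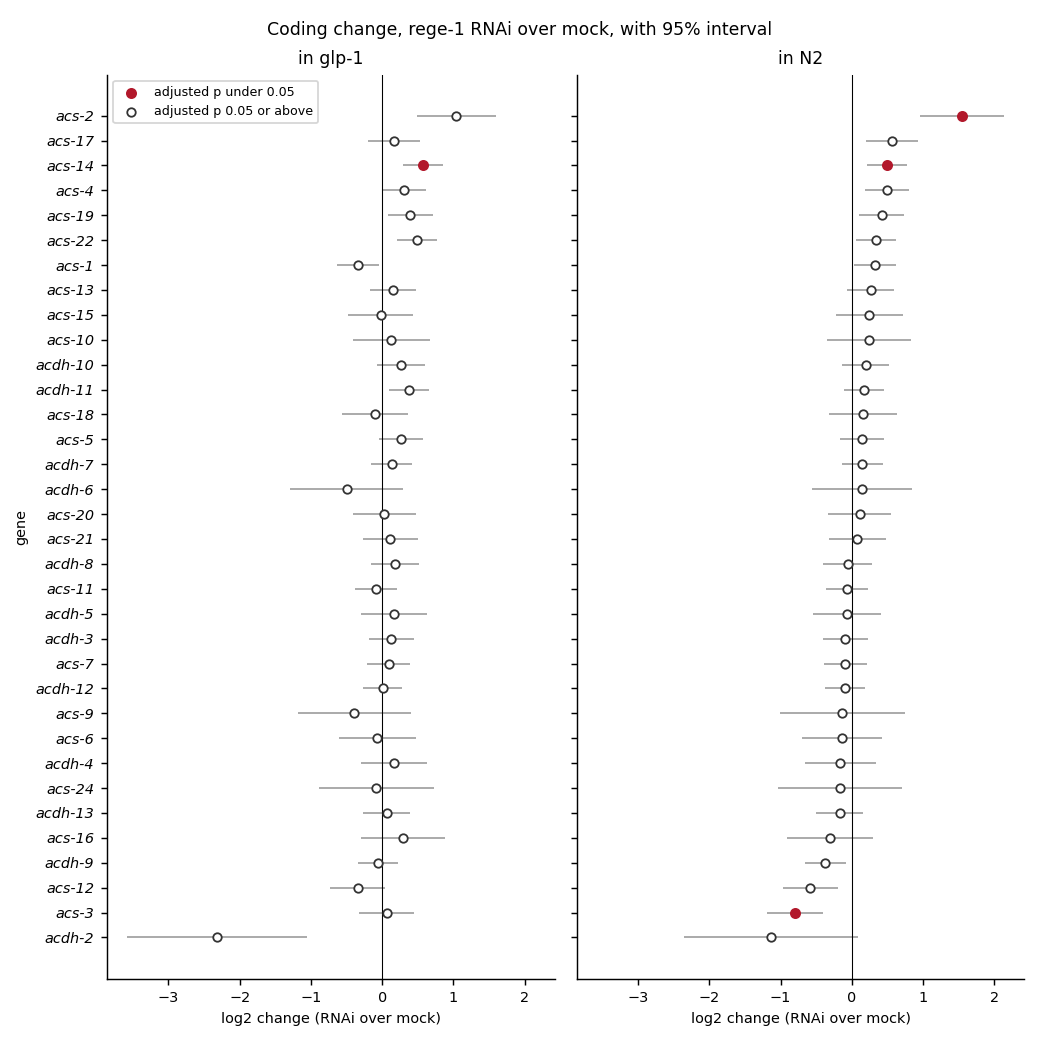
Log2 change of coding counts (RNAi over mock) with its 95% interval for the 34 genes in glp-1 (left) and N2 (right), ordered by the change in N2, with filled points for an adjusted p under 0.05. Filled are acs-14 (0.57) in glp-1, and acs-2 (1.55), acs-14 (0.50) and acs-3 (-0.80) in N2.

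The test of the difference asks whether the response depends on the strain. By edgeR 0 of the 34 genes passed, against 0.0261% of all genes tested, with 2 at an unadjusted p under 0.05 (5.4% of all genes tested) and 0 by DESeq2 and by limma. Those 2 were acs-1 and acs-3. The gene acs-1 (WBGene00018488, protein coding, chromosome V from 6524989 to 6532089, plus strand) is needed to make use of monomethyl branched-chain fatty acids. It had 138 and 144 CPM in glp-1 RNAi against 177 and 180.3 in glp-1 mock, and 224 and 249 in N2 RNAi against 177 and 201 in N2 mock. The RNAi libraries thus lay below mock in glp-1 (log2 -0.34, adjusted p = 0.361) and above mock in N2 (log2 0.32, adjusted p = 0.293). The difference, glp-1 minus N2, was -0.66 (SE 0.19, adjusted p = 0.743). For acs-3 the change in glp-1 was 0.06 (95% interval -0.33 to 0.45), with 29.4 and 24.5 CPM under RNAi against 26.7 and 24.8 under mock. Its difference was 0.86 (SE 0.25, adjusted p = 0.76).

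Between the strains, which have separate mock libraries, 21 of the 34 genes (61.8%) had a log2 change of the same sign, against 56.4% of all genes tested. Across the 34 genes the log2 changes correlated with Pearson's r of 0.70 and Spearman's rho of 0.56, against 0.61 and 0.26 across all genes tested. These values are a description only, since all genes come from the same 8 libraries. RNAi libraries lay above mock in both strains for acs-2, acs-4, acs-14, acs-19, acs-22 and acdh-11, which is 17.6% of the 34 against 7.89% of genes tested. They lay below mock in both for acs-12 and acdh-2, which is 5.88% against 7.36%. The acetyl-CoA synthetase gene acs-19 was among those above mock, without passing in either strain. It had 367 and 389.6 CPM in glp-1 RNAi against 281 and 296 in glp-1 mock (log2 0.39, adjusted p = 0.309), and 464 and 461 in N2 RNAi against 380.3 and 310.4 in N2 mock (log2 0.42, adjusted p = 0.172).

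**Figure D3:**
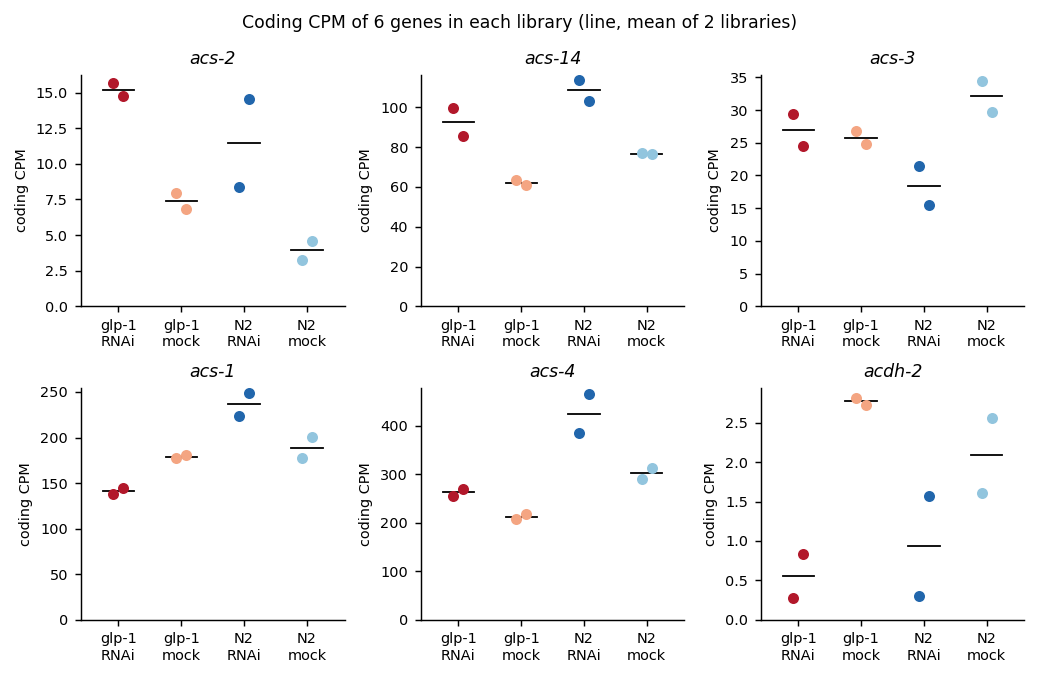
Coding CPM in each library for acs-2, acs-14, acs-3, acs-1, acs-4 and acdh-2, with 2 points per group and a line at their mean; the vertical axes start at 0. For acs-2 the points lie at 15.6 and 14.8 in glp-1 RNAi, 7.93 and 6.85 in glp-1 mock, 8.34 and 14.5 in N2 RNAi, and 3.26 and 4.59 in N2 mock, and acs-1 is below mock in glp-1 and above it in N2.

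Intron counts were too few to follow most of these genes. Of the 34, 12 passed the filter in the intron table, among them acs-14 and acdh-2 but neither acs-2 nor acs-3. By edgeR 0 of the 12 were called in either strain, with 2 in each at an unadjusted p under 0.05 (6.66% of all genes tested in glp-1 and 6.68% in N2), and limma also called 0. Of all genes tested for introns, 0.694% were called in glp-1 and 1.07% in N2. For acs-14 the intron counts were 8 and 14 in glp-1 RNAi against 3 and 4 in glp-1 mock, and 14 and 5 in N2 RNAi against 9 and 6 in N2 mock (adjusted p = 0.601 in glp-1, and above 0.999 in N2). On simulated N2 intron counts edgeR recovered 25% of genes changed 2-fold and 91% of those changed 4-fold. The changed genes were drawn only from those that reached a set mean count. Neither acs-14 nor acdh-2 reached it, nor did acs-13, acs-20, acdh-4, acdh-7 and acdh-11, so these shares do not apply to them. Between strains, a comparison added after the values were seen, acs-1 was called under mock, with 107 and 80 intron counts in glp-1 against 38 and 17 in N2 (log2 1.47, SE 0.32, adjusted p = 0.0414), where 0.417% of all genes tested were called. It was called in 8 of 14 alternatives and not without glp-1 mock replicate 1 or 2 (0.496 and 0.256), N2 mock replicate 2 (0.245), with library totals alone (0.392), by limma (0.218) or in a fit of the mock groups alone (0.0621). Under RNAi it had 94 and 97 intron counts in glp-1 against 50 and 49 in N2 (adjusted p = 0.407). In that comparison 0 of the 12 genes were called, against 0.516% of all genes tested. Coding counts of acs-1 were not called under mock (log2 -0.08, adjusted p = 0.751).

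The comparison of glp-1 with N2 under mock asks how the mutant background differs. The synthetases acs-7 and acs-4 and the dehydrogenase acdh-7 were lower in glp-1, and acs-10 was higher. These 4 genes are 11.8% of the 34, against 9.73% of all genes tested (6.49% higher and 3.24% lower). With library totals alone 4 members were higher and 1 lower, and the median of all genes was 0.13, so directions are relative to the bulk of genes. Of all calls 33.3% were lower with the scaling used and 15.4% with library totals alone. The glp-1 libraries lay above both N2 libraries for 13 members and below for 16, against 32.6 and 30.3% of all genes tested.

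The gene acs-7 (WBGene00007228, protein coding, chromosome II from 9292017 to 9294033, plus strand) encodes a peroxisomal synthetase that acts in the assembly of ascaroside pheromones. It had 35.1 and 34.3 CPM in glp-1 mock against 59.6 and 55.2 in N2 mock, and the groups were far apart relative to their spread. The change (glp-1 over N2) was -0.73 (SE 0.14, adjusted p = 0.00812). It was not called without glp-1 mock replicate 1 or 2 (adjusted p = 0.0864 and 0.104) or N2 mock replicate 1 (0.0609). Under RNAi it had 34.1 and 39.9 CPM in glp-1 against 58.5 and 49.02 in N2 (log2 -0.54, adjusted p = 0.0239).

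The genes acdh-7 (WBGene00020812, chromosome X from 17215018 to 17217105) and acdh-10 (WBGene00020366, chromosome X from 17213144 to 17214903) both lie on the minus strand with 115 bases between them, and both encode relatives of the medium-chain enzyme. No other pair of members lay within 10000 bases. In glp-1 mock acdh-7 had 43.8 and 46.8 CPM, against 62.6 and 68.7 in N2 mock (log2 -0.53, SE 0.13, adjusted p = 0.0287). Its neighbour acdh-10 had 56.8 and 62.7 CPM in glp-1 mock, against 75.3 and 85.9 in N2 mock (log2 -0.43, adjusted p = 0.1). Under RNAi acdh-7 was lower again, with 54.8 and 44.6 CPM in glp-1 against 72.3 and 72.9 in N2 (log2 -0.55, adjusted p = 0.0194). There acdh-10 had 81.2 and 62.3 CPM in glp-1 against 86.4 and 97.8 in N2 (log2 -0.36, adjusted p = 0.116). Under mock the acdh-7 call ended without glp-1 mock replicate 1 or 2 (0.282 and 0.184) or N2 mock replicate 1 or 2 (0.0722 and 0.113), with library totals alone (0.0785) and by limma (0.0859).

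Another gene of the medium-chain type, acdh-8 (WBGene00019406, chromosome II from 5794495 to 5796185, plus strand), lay the other way. It had 26.6 and 24.2 CPM in glp-1 mock against 18.3 and 16.9 in N2 mock (log2 0.53, SE 0.16, adjusted p = 0.0552), and it passed in 9 of 16 alternatives (DESeq2 0.0498, mock groups alone 0.0254). Under RNAi it was higher in glp-1, with 31.1 and 26.5 CPM against 18.4 and 15.4 in N2 (log2 0.77, SE 0.16, adjusted p = 0.00977). The call under RNAi ended without N2 RNAi replicate 2 (0.104) and in a fit of the RNAi groups alone (0.0511).

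The gene acs-10 (WBGene00007082, chromosome V from 14146499 to 14148839, plus strand) had 6.85 and 7.99 CPM in glp-1 mock against 4.45 and 3.03 in N2 mock (log2 0.98, SE 0.26, adjusted p = 0.0373). Under RNAi it had 8.48 and 7.74 CPM in glp-1 against 5.50 and 3.38 in N2. The germline-linked acs-4 (WBGene00018152, chromosome III from 7167838 to 7170990, plus strand) had 208 and 217 CPM in glp-1 mock against 290.3 and 313 in N2 mock (log2 -0.50, SE 0.14, adjusted p = 0.047). Of the 12 germline markers, 4 were lower in glp-1 and 0 higher under mock, and their part in acs-4 was not tested. Under mock acs-10 was not called without any 1 of the 4 libraries (0.0675 to 0.229). For acs-4 the same held (0.106 to 0.353), as it did without N2 RNAi replicate 1 or 2 (0.0541 and 0.0539), with library totals alone (0.105), by limma (0.0987), with the length trend removed (0.0758) and with no filter (0.0562). Also close to the threshold was acs-2, with a change of 0.92 (SE 0.27, adjusted p = 0.0552) in glp-1 against N2 under mock, which passed in 9 of 16 alternatives (DESeq2 0.0188, mock groups alone 0.0256). The synthetase gene acs-18 had 11.99 and 11.69 CPM in glp-1 mock against 9.073 and 6.454 in N2 mock (log2 0.61, adjusted p = 0.102).

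The comparison of glp-1 with N2 under rege-1 RNAi called 9 genes, which is 26.5% of the 34 against 18.1% of all genes tested (10.6% higher and 7.54% lower). Lower in glp-1 were acs-1 (log2 -0.74, SE 0.13, adjusted p = 0.0051), acs-4 (-0.70), acs-7 (-0.54), acs-13 (-0.52), acdh-6 (-1.22) and acdh-7 (-0.55). Higher were acdh-8, acs-10 (0.87) and acdh-4 (0.73). With library totals alone 6 were higher and 2 lower, the median of all genes was 0.18, and 17.4% of all calls were lower in place of 41.6%. The glp-1 libraries lay above both N2 libraries for 13 members and below for 13, against 32.2 and 29.3% of all genes tested. Of 16 alternatives, acs-1 kept its call in 15 and acs-4 and acdh-8 in 14, while the other 6 genes lost theirs in 5 to 9. No member was called without N2 RNAi replicate 2, when 3.38% of all genes tested were called. The values of acdh-6 rest on 14 and 26 counts in glp-1 RNAi against 50 and 37 in N2 RNAi. Of the 12 germline markers, 6 were lower in glp-1 in this comparison and 0 higher, and of 7 sperm markers tested 3 were higher and 0 lower (2 and 0 under mock), and their part in these values was not tested.

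**Figure D4:**
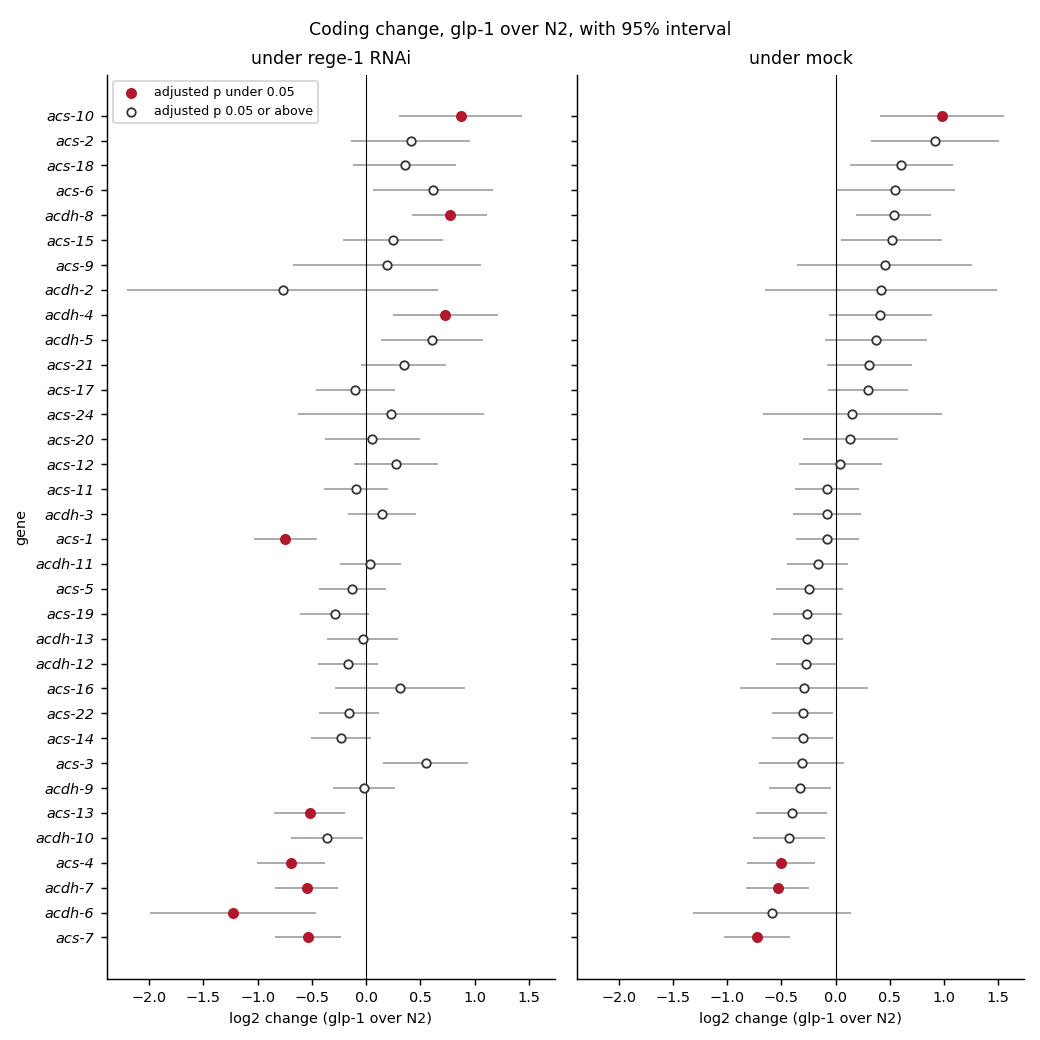
Log2 change of coding counts (glp-1 over N2) with its 95% interval for the 34 genes under rege-1 RNAi (left) and under mock (right), ordered by the change under mock, with filled points for an adjusted p under 0.05. Filled are 9 genes under RNAi and 4 under mock, with acs-7 (-0.54 and -0.73), acs-4, acdh-7 and acs-10 filled in both.

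Neighbouring steps of fatty acid breakdown were examined with gene lists, which were chosen with earlier results of these data known. Of all genes tested, 2.7% were called with RNAi in glp-1 (1.89% higher, 0.816% lower) and 4.79% in N2 (3.13% higher, 1.66% lower). These shares stand beside the counts of every list below. In the carnitine shuttle, which carries acyl groups into mitochondria, 0 of 7 genes passed with RNAi in glp-1, and 1 rose and 2 fell in N2. After the dehydrogenase step, 2 of 11 mitochondrial genes rose in glp-1 and 3 in N2, with 0 lower in either. They were the hydratase-family gene ech-7 (log2 0.71 in glp-1 and 0.81 in N2) and the hydroxyacyl-CoA dehydrogenase gene hacd-1 (0.98 and 2.12) in both strains, and the trifunctional protein gene ech-1.1 in N2 (1.45, and 0.54 with adjusted p = 0.0924 in glp-1). The 3 genes of electron transfer from the dehydrogenases (let-721 and both flavoprotein subunits) had 0 calls in either strain.

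In peroxisomal beta-oxidation, which shortens very long chains and ascarosides, 5 of 12 genes rose and 1 fell in glp-1, and 6 rose and 3 fell in N2. The thiolase gene daf-22 rose by 0.65 in glp-1 and 0.54 in N2, and the dehydrogenase gene dhs-28 by 0.97 and 1.09. The oxidase gene acox-1.3 was called lower in both strains (-1.101 in glp-1 and -1.51 in N2). The summed level of the list was 2087 to 2391 CPM in glp-1 RNAi against 579 to 608 in glp-1 mock, and 3216 to 3484 in N2 RNAi against 677 to 702 in N2 mock. Most of this came from ech-9 (589 and 844 CPM in glp-1 RNAi, 1326 and 1285 in N2 RNAi) and acox-1.5 (715 and 794 in glp-1 RNAi, 1240 and 1032 in N2 RNAi).

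Of 18 genes that use or bind acyl-CoA, 4 rose and 0 fell in glp-1, and 5 rose and 1 fell in N2. The serine palmitoyltransferase genes sptl-2 (1.72 in glp-1 and 2.41 in N2) and sptl-1 (0.77 and 1.13), whose products join palmitoyl-CoA to serine for sphingolipids, were among them. So was acl-1 (1.31 and 2.12), an acyltransferase of phospholipid synthesis. Of 13 genes for branched-chain and propionyl-CoA breakdown, 0 passed in glp-1 and 1, the aminotransferase gene bcat-1, rose in N2 (0.53). Of 13 regulators of fat metabolism, 1 rose in each strain, the ETS factor gene ets-4 (1.93 in glp-1 and 2.25 in N2). The receptor gene nhr-49, known to drive acs-2 on fasting, was at 0.18 in glp-1 (adjusted p = 0.684) and 0.31 in N2 (adjusted p = 0.316). For comparison, the median of the 34 members was 0.12 in glp-1 and 0.09 in N2, and that of all genes -0.0046 and -0.01.

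**Figure D5:**
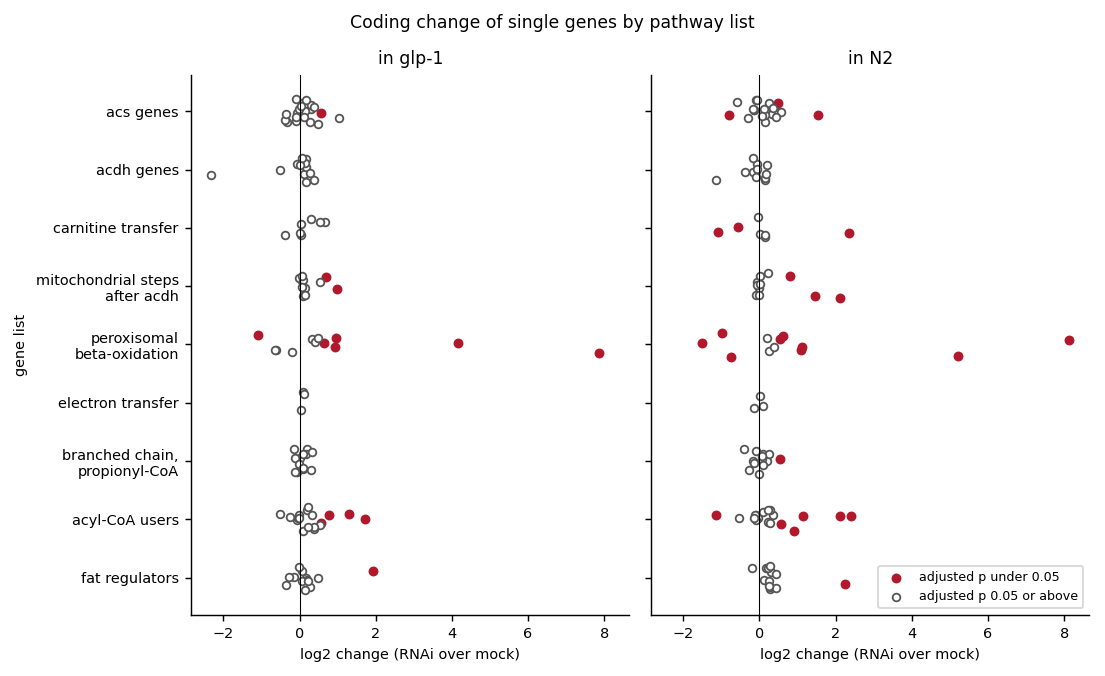
Log2 change of coding counts (RNAi over mock) for single genes of the acs and acdh families and of 7 further lists, in glp-1 (left) and N2 (right), with filled points for an adjusted p under 0.05. Most acs and acdh points lie within 1 of zero, the dehydrogenase row has 0 filled points in either strain, and ech-9 (7.86 and 8.14) and acox-1.5 (4.16 and 5.22) lie far to the right among the peroxisomal genes.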

How the data were processed

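Total RNA of whole young adults was turned into ScriptSeq v2 libraries, per the labels. Raw counts of each gene in coding sequence and in introns, beside a width, were deposited by the authors. They also deposited log2 values, checked here to be counts brought to the average library total, plus 8, on the log2 scale. The sources used here name no aligner, build, annotation, counter or strand setting. Symbols came from a WormBase name table and positions from Ensembl release 115 (WBcel235). Exons of 10 of the 34 genes overlap another gene, by 9 to 228 bases in all, so that reads could be shared. Sequences were not analysed here.

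Counts were fitted with edgeR 4.0.16 in R 4.3.3, using filterByExpr with a minimum count of 10, TMM scaling, all 4 groups together and robust quasi-likelihood F tests, two-sided, with 4 residual degrees of freedom. Benjamini-Hochberg adjustment covered all 15321 genes (5042 for introns), with a threshold of 0.05. The SE is the log2 change divided by the square root of F. On simulated N2 counts edgeR recovered 70% of genes changed 2-fold and 98% of those changed 4-fold, and 6.67% of its calls were false. The changed genes were drawn only from those that reached a set mean count, which acs-9 and acs-24 did not. Alternatives were other scalings, no filter, a replicate block, the compared groups alone, DESeq2 1.42.0, limma 3.58.1 on the deposited log2 values, removal of each library's trend over coding length, and each library left out. Members and lists were chosen with earlier results of these data known. Values per library are given for members past the threshold with RNAi, for the 8 with the lowest p between strains under mock, and for the 3 highest of each family; further members were named after their values were seen.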

Additional observations from a re-analysis of the deposited data

Results flagged for a closer look

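The gene acs-1 was flagged because both of its RNAi libraries lay below both mock libraries in glp-1 and above both in N2. Of all genes tested, 21.8% lay below mock in this way in glp-1 and 19.4% above it in N2. The share that did both was not computed, so the pattern alone does not set the gene apart. The difference of the responses, glp-1 minus N2, was -0.66 on the log2 scale, with an unadjusted p of 0.00441 and an adjusted p of 0.743 by edgeR's quasi-likelihood test. It was not called under any alternative run. No test for a single deviating sample was made, since every group held 2 libraries.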

How the results depend on the processing

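The 17 calls on members kept their direction in all 272 alternative values, and stayed past the threshold in 173 and missed it in 99. The number of members called with RNAi in N2 (3) ranged from 0 to 6 when 1 library was left out. With RNAi in glp-1 (1) it ranged from 0 to 3, and it was 0 with library totals alone, 2 with no filter, 3 with the replicate block, 3 by DESeq2, 0 by limma and 3 with the length trend removed. For glp-1 against N2 under mock (4) it ranged from 0 to 7 without 1 library and was 7 with the compared groups alone. Under RNAi (9) it ranged from 0 to 10 without 1 library and was 1 with the compared groups alone. For the difference of the responses it was 0 in all settings run, as it was for introns in both RNAi comparisons, where DESeq2 and the length trend were not run. The cause of these shifts was not tested.

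Same-numbered replicates deviated together only in N2 (r = 0.17 between RNAi and mock, and -0.04 in glp-1), so the numbers are not taken as pairs. With the replicate block 2 members were called with RNAi in N2, 3 in glp-1, 6 between strains under mock and 10 under RNAi, and acs-14 in N2 was not called (adjusted p = 0.0519), while acdh-2 (0.0159) and acs-2 (0.0373) in glp-1, and acs-2 (0.0388) and acdh-8 (0.0432) between strains under mock, were. The glp-1 RNAi replicates differed along coding length (Spearman's rho -0.44 across genes). The values were -0.25 in N2 RNAi, 0.12 in N2 mock and -0.03 in glp-1 mock.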
